A study of Danio rerio with 6 samples.

Results

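The gene mslna of the zebrafish, a mesothelin-type gene, stood 20.04-fold lower in the larval fin fold 4 h after amputation than in the uncut fold. It is 1 gene of 32266 in the deposited table, taken as the row named mslna (ENSDARG00000098949), and it was chosen by the difference between its counts in these same groups, so that difference is described here and not tested. A pair of non-coding RNAs annotated beside it were also much lower in the amputated folds, while its other neighbours and its relatives on chromosome 1 changed far less. The choice of mslna by its difference all but fixed a smaller fall in any other gene. Many epidermal and mesenchymal markers of the fold were also lower, though fewer when library totals alone set the scale, and many leukocyte markers rose. Of all tested genes 19.6% were called lower and 20.8% higher.

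RNA sequencing measured transcript levels in fin folds of 3-day-old zebrafish. A group of 3 libraries came from folds 4 h after amputation and a group of 3 from uncut folds. Library descriptions in both groups carry the name of the solvent DMSO, and no strain, transgene or drug is named. The labels do not say which stretch of the fold was collected after the cut, nor whether replicates came from separate larvae, and the spread behind every p-value is that of these libraries, which may be technical. The fold is a thin flap of skin around the tail, with epidermal layers over mesenchymal cells and stiff collagen-rich fibres.

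Mesothelin is a cell surface glycoprotein. In human it is made as a precursor that furin splits into a secreted part, megakaryocyte potentiating factor, and a part held on the membrane by a glycosylphosphatidylinositol (GPI) anchor. The membrane part binds the mucin MUC16 (CA125) and can hold cells to each other. In human it is known from the mesothelium, the cell layer that lines the pleura, pericardium and peritoneum, and from mesothelioma, ovarian and pancreatic tumours. Stereocilin and otoancorin, proteins of the inner ear, are its distant relatives. The deposited table pairs mslna with the human gene MSLNL (mesothelin-like).

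Total counts ran from 18595152 to 21128093 in the amputated libraries and from 11216130 to 23019556 in the uncut libraries. Across all genes, edgeR's quasi-likelihood test called 7223 of 17883 tested genes at a Benjamini-Hochberg adjusted p under 0.05, or 40.4%, of which 3724 (20.8%) were higher after amputation and 3499 (19.6%) lower. In 51.1% of tested genes the values of the groups did not overlap. Levels are given as CPM, a gene's count scaled to its library's size after TMM, a method that brings the libraries to a common level for the bulk of genes, and log2 fold changes are amputated over uncut. When totals alone set the scale, the median log2 fold change of all tested genes was 0.26, against 0.003 with TMM. The call counts were then 6820 higher and 1638 lower.

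The gene mslna lies on chromosome 3 from 43134641 to 43171972, in coordinates as deposited, for which the sources used here name no genome build. It had 77, 129 and 213 counts in amputated replicates 1, 2 and 3, and 1472, 3412 and 1384 counts in uncut replicates 1, 2 and 3. On the CPM scale its level was 3.81, 6.20 and 9.28 in amputated folds, and 96.9, 158.6 and 134.4 in uncut folds. Every amputated library was low and every uncut library high, with no overlap. Groups did not overlap in 51.1% of all tested genes. The lowest uncut level was 10.4 times the highest amputated level.

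The mean level of mslna was 6.43 ± 2.74 CPM in amputated folds and 130.0 ± 31.1 CPM in uncut folds (SD, n = 3 each), so that 4.95% of the uncut mean was left. Its log2 fold change was −4.33 ± 0.25 (SE). Between libraries of the same number the level in uncut folds was 25.4, 25.6 and 14.5 times that in amputated folds for replicates 1, 2 and 3. With the replicate number as a block the log2 fold change was −4.36 ± 0.14 (SE). In bulk tissue, fewer cells of a type and less mslna RNA per cell cannot be told apart.

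The fall of mslna stood near the end of the range of all genes. Only 8 of 17883 tested genes (0.0447%) had a log2 fold change at or below −3, mslna among them, and 1 gene had a lower value. That gene, sgms2, which encodes a sphingomyelin synthase, was at −4.52 ± 0.39 on few reads. Among the 12376 tested genes whose mean level reached 5 CPM, mslna had the lowest log2 fold change. Since mslna was chosen by this difference, its rank describes that choice and is no further evidence. The RNAs si:dkey-288d17.1 and si:dkey-288d17.2 beside mslna, described below, were also among the 8.

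Replicates of mslna differed by more than counting error. Its coefficient of variation was 42.7% in amputated folds and 23.9% in uncut folds, where counting alone would give 8.46% in amputated folds and 2.19% in uncut folds. Exact 95% Poisson intervals, which cover counting error only, ran from 3.01 to 4.76 CPM in amputated replicate 1 and from 8.08 to 10.6 CPM in amputated replicate 3. The SD of log2 CPM was 0.63 for mslna in amputated folds and 0.36 in uncut folds, against medians over all tested genes of 0.13 in amputated folds and 0.17 in uncut folds. The biological coefficient of variation that edgeR fitted for mslna was 0.198, against a trend of 0.0895 at its level, and 92.5% of tested genes had a smaller one. What was left of mslna after amputation thus spanned a 2.44-fold range, against 1.64-fold among uncut folds.

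**Figure D1:**
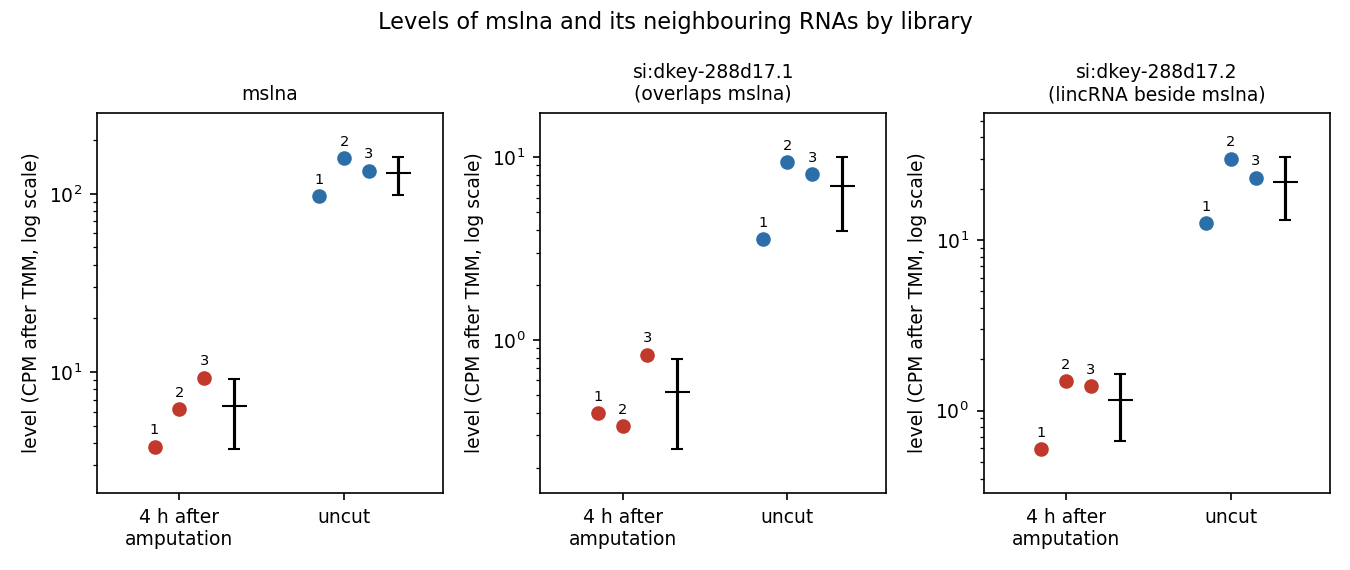
Levels in CPM after TMM (log axes) of mslna, the overlapping RNA si:dkey-288d17.1 and the nearby lincRNA si:dkey-288d17.2 in each library, numbered by replicate, for folds 4 h after amputation (red) and uncut folds (blue), with mean and SD in black (n = 3 each). In all 3 panels the amputated libraries lie below every uncut library, and amputated replicate 1 of mslna sits lowest at 3.81 CPM. Groups did not overlap in 51.1% of all tested genes.

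The genes around mslna were read next, since position played no part in its choice. Within 100 kb of mslna the deposited table lists 10 other genes. Of these, 2 RNAs fell strongly with mslna, and both are annotated as non-coding and lie at its higher-coordinate end. The long intergenic RNA si:dkey-288d17.2 (listed as BX682557.1; chromosome 3, 43177539 to 43188526) starts 5566 bases beyond mslna and does not overlap it. It had 12, 31 and 32 counts in amputated replicates 1, 2 and 3, and 190, 647 and 238 counts in uncut replicates 1, 2 and 3. Each amputated library thus held fewer reads of this RNA than any uncut library. On the CPM scale, groups did not overlap in 51.1% of all tested genes. Its mean level was 1.16 ± 0.49 CPM in amputated folds and 21.9 ± 8.85 CPM in uncut folds (SD, n = 3 each), and its log2 fold change was −4.23 ± 0.35 (SE; edgeR quasi-likelihood test, adjusted p = 3.5e-06).

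The other, si:dkey-288d17.1 (listed as BX682557.2; 43165868 to 43174212), is annotated as a sense-overlapping RNA and shares 6105 of its 8345 bases with the span of mslna. It had 8, 7 and 19 counts in amputated replicates 1, 2 and 3, and 54, 201 and 83 counts in uncut replicates 1, 2 and 3. The groups of this RNA did not overlap, as in 51.1% of all tested genes. Its log2 fold change was −3.71 ± 0.41 (SE). This RNA passed the filter on low counts through the uncut folds alone, so no p-value is given for it. The library kit did not mark strand and the sources used here name no counting rule, so reads of si:dkey-288d17.1 and mslna cannot be told apart where they overlap.

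For each 100 counts of mslna, si:dkey-288d17.2 had 15.58, 24.03 and 15.02 counts in amputated replicates 1, 2 and 3, and 12.91, 18.96 and 17.2 in uncut replicates 1, 2 and 3. These ratios overlapped between the groups while both levels fell. Whether reads of si:dkey-288d17.2 arise independently of mslna was not tested. The p-value of si:dkey-288d17.2 may thus partly restate the difference by which mslna was chosen. For si:dkey-288d17.1 the ratios were 10.39, 5.426 and 8.92 in amputated folds, and 3.668, 5.891 and 5.997 in uncut folds, which also overlapped.

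The remaining 8 neighbours stayed within 0.65 of 0 on the log2 scale. Of these, zc3h7a, ubfd1 and BX571715.1 were called, where 40.4% of all tested genes were called. The zinc finger gene zc3h7a rose by 0.33 ± 0.08 (SE; edgeR adjusted p = 0.00679), with 53.2 ± 2.65 CPM in amputated folds and 42.1 ± 2.02 CPM in uncut folds (SD, n = 3 each). At 0.35 ± 0.12 ubfd1 passed the test (edgeR adjusted p = 0.0352), but not with DESeq2 (0.0646) nor without amputated replicate 1 (0.071), 2 (0.108) or 3 (0.073) or uncut replicate 2 (0.127) or 3 (0.128). The gene BX571715.1, paired with human MFSD11, was at −0.46 ± 0.15 (edgeR adjusted p = 0.0243), a call lost without amputated replicate 1 (0.0623) or 3 (0.0781), without uncut replicate 3 (0.0908) and when totals alone set the scale (0.288). The endosomal protein gene litaf was at 0.30 ± 0.12 and missed the threshold (edgeR adjusted p = 0.0643), but its adjusted p was 0.0261 in the fit with a replicate block, 0.0419 without uncut replicate 1 and 0.00264 when totals alone set the scale.

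The other 4 neighbours missed the threshold of the edgeR test. The gene closest to mslna at its lower-coordinate end is rmi2, whose product works in DNA repair and which ends 502 bases before mslna. It had 19, 24 and 25 counts in amputated folds and 26, 14 and 12 in uncut folds, with a log2 fold change of −0.10 ± 0.36 (edgeR adjusted p = 0.851). The genes snn, PLA2G10 and CU138533.1 were at −0.01 ± 0.29, −0.23 ± 0.30 and −0.65 ± 0.50 (edgeR adjusted p = 0.988, 0.578 and 0.331), on 31 to 137 counts per group. The large falls near mslna were thus those of the RNAs at its higher-coordinate end.

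**Figure D2:**
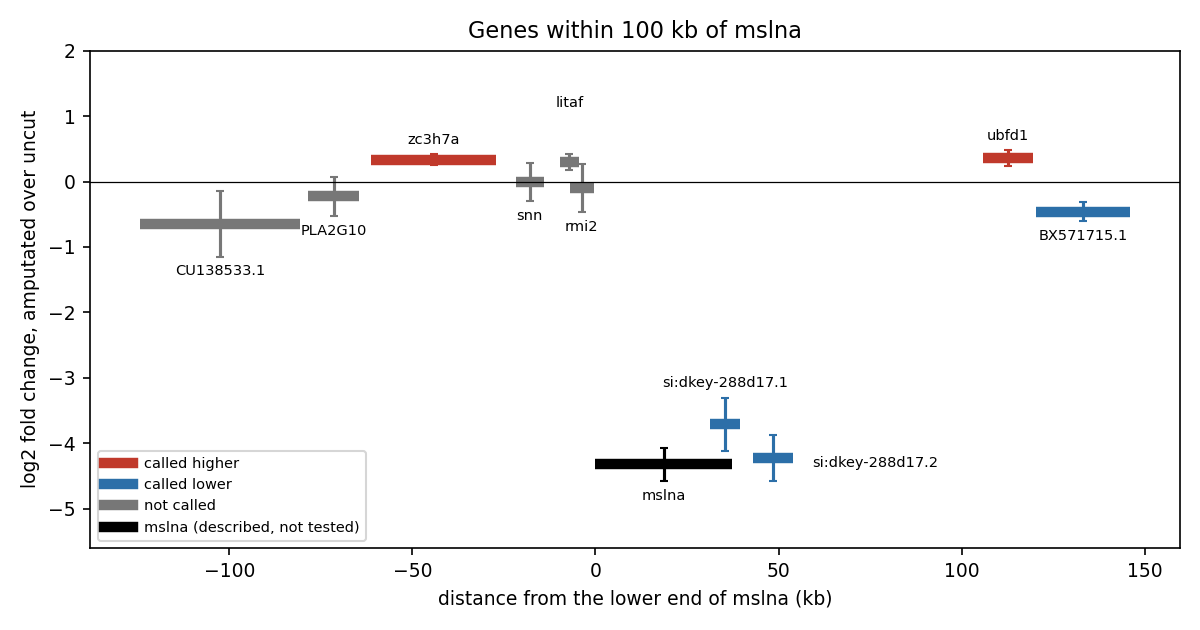
Log2 fold change (amputated over uncut) of each gene within 100 kb of mslna, drawn as a bar over its annotated span, against distance in kb from the lower-coordinate end of mslna; whiskers are the SE. The black bar of mslna at −4.33 and the bars of si:dkey-288d17.1 and si:dkey-288d17.2 at −3.71 and −4.23 lie apart from the other 8 genes.

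Relatives of mslna, taken by human ortholog pairing and by gene name with no sequence compared, changed much less. But mslna was chosen by its difference, and only 1 tested gene had a lower value. Any relative was thus all but bound to fall less. The deposited table pairs 4 zebrafish genes with human MSLNL: mslna and 3 genes in a stretch of chromosome 1. The gene CABZ01052573.1 (chromosome 1, 58646785 to 58653669) had 58.5, 58.8 and 54.6 CPM in amputated replicates 1, 2 and 3, and 111.5, 94.9 and 96.0 CPM in uncut replicates 1, 2 and 3. It fell in every amputated library, by 0.82 ± 0.09 on the log2 scale (SE; edgeR adjusted p = 2.07e-05). Its neighbour si:ch211-188p14.4 (58697974 to 58709503) had 58.2, 73.3 and 65.7 CPM in amputated folds, and 88.1, 85.3 and 94.6 CPM in uncut folds. It fell by 0.44 ± 0.09 (SE; edgeR adjusted p = 0.00273), but its call was lost with library totals alone (−0.18, adjusted p = 0.163). Its groups did not overlap, as in 51.1% of all tested genes.

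The third, si:ch211-188p14.5, lies within the span of si:ch211-188p14.4 and was listed at 0 counts in all 6 libraries. Reads from where these genes overlap may have been split between them in a way the sources used here do not give. Of all counts of the 4 MSLNL-type genes, mslna held 3.16%, 4.48% and 7.16% in amputated replicates 1, 2 and 3, and 32.7%, 46.8% and 41.4% in uncut replicates 1, 2 and 3. These shares are not corrected for gene length, so they are compared between groups only. The summed level of the 4 genes was 120.4, 138.4 and 129.5 CPM in amputated folds, and 296.5, 338.8 and 325.0 CPM in uncut folds. Both the shares and the sum include mslna, which was chosen by its difference, so they partly restate that difference.

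Genes of the inner ear branch had few counts. The stereocilin-type gene strc1 (chromosome 7, 31124506 to 31154306) had 4.65, 6.15 and 7.32 CPM in amputated folds, and 3.03, 5.25 and 3.40 CPM in uncut folds, groups that overlapped. Its log2 fold change of 0.60 ± 0.23 missed the threshold (edgeR adjusted p = 0.06). For strc1 the adjusted p was 0.0176 with a replicate block, 0.0324 without amputated replicate 1, 0.0137 without uncut replicate 2, 0.0133 with library totals alone and 0.0194 when low counts were not filtered. The otoancorin gene otoa (chromosome 16, 22133134 to 22202744) had 2.18, 1.06 and 1.92 CPM in amputated folds, and 2.17, 2.42 and 3.98 CPM in uncut folds, at −0.69 ± 0.31 (edgeR adjusted p = 0.101, and 0.0354 with the block). A gene named strc in the gene name table had 1 count in all amputated libraries and 10 in all uncut libraries, too few to test. The gene mslnb was not matched to an ID and was not analysed under that name. Whether one of the MSLNL-type genes on chromosome 1 is mslnb was not settled here. No test was made of mslna against these relatives, since mslna was chosen for its change.

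**Figure D3:**
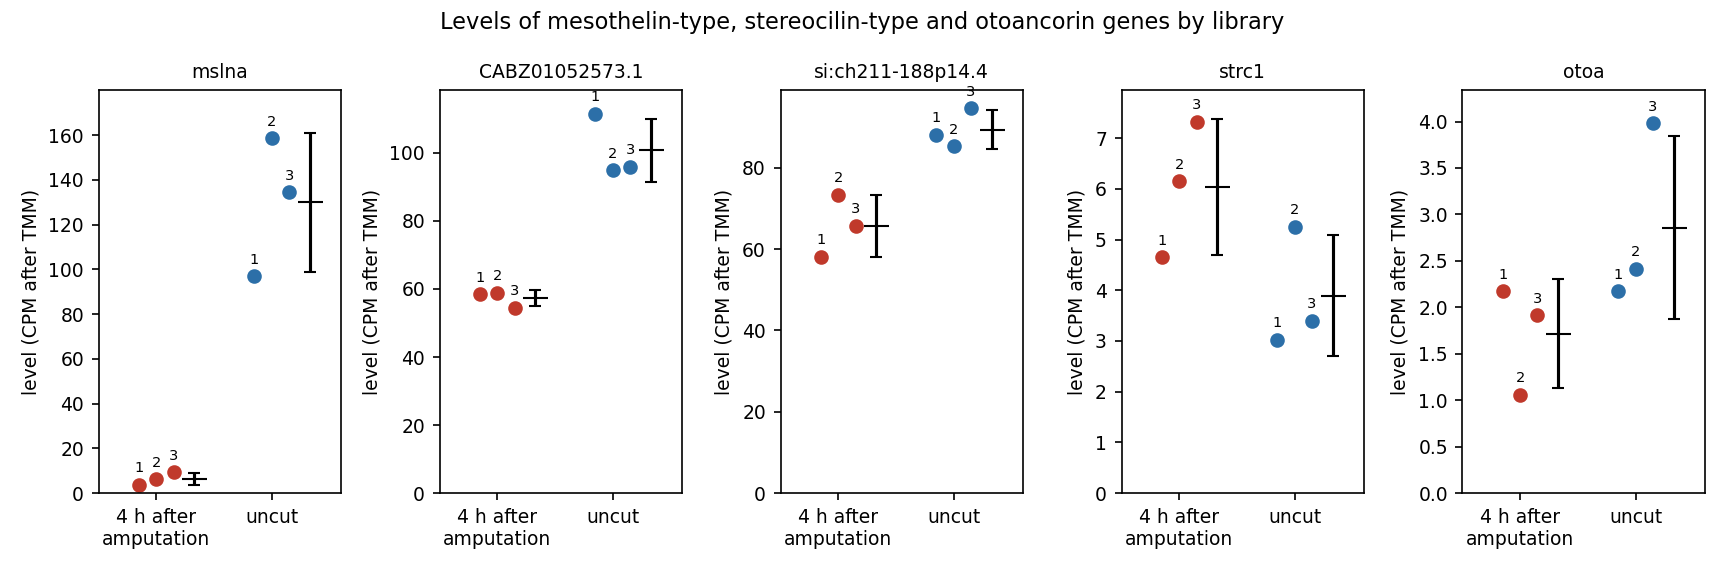
Levels in CPM after TMM of mslna, CABZ01052573.1, si:ch211-188p14.4, strc1 and otoa in each library, numbered by replicate, for folds 4 h after amputation (red) and uncut folds (blue), with mean and SD in black (n = 3 each) and axes from 0. The amputated mean of mslna, a gene chosen by its difference in these same groups, was 4.95% of its uncut mean. The amputated points of the other 4 genes stay on the scale of their uncut points.

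Genes for the partners and the making of a mesothelin protein were then read as lists of textbook members. Of 11 membrane mucins on the list, muc13a alone was tested, and muc16 was not matched by name. The level of muc13a was 11.9 ± 3.82 CPM in amputated folds and 6.93 ± 1.18 CPM in uncut folds (SD, n = 3 each), at 0.76 ± 0.22 (SE; edgeR adjusted p = 0.0163), a call lost without amputated replicate 2 (0.0866) or uncut replicate 3 (0.0587). Of 9 tested proprotein convertases, the family that splits precursors, 3 fell, with a median log2 fold change of −0.09, where 19.6% of all tested genes were lower. Among those that fell were furina (−0.42 ± 0.09, edgeR adjusted p = 0.00321) and pcsk5b (−0.52 ± 0.10, 0.00129). With library totals alone, 3 convertases rose and 1 fell, and neither furina (edgeR adjusted p = 0.17) nor pcsk5b (0.0574) passed.

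More of the genes that build and attach the GPI anchor rose than fell. Of 29 tested, 11 rose and 2 fell, with a median of 0.29, against 20.8% higher and 19.6% lower among all tested genes. Of 5 subunit genes of the transamidase, which joins the anchor to the protein, 3 rose: gpaa1 by 0.72 ± 0.10 (edgeR adjusted p = 0.000154), pigs by 1.13 ± 0.24 (0.00253) and pigt by 1.06 ± 0.26 (0.00566). The subunit gene pigu was at −0.06 ± 0.10 (edgeR adjusted p = 0.64) and pigk at 0.50 ± 0.30 (0.209, but 0.0352 without amputated replicate 2). The mannosyltransferase gene pigm rose by 0.84 ± 0.15 (edgeR adjusted p = 0.00102), while mpdu1a, needed for the use of the mannose donor, fell by 1.13 ± 0.13 (4.47e-05). Its paralogue mpdu1b was called the other way, at 0.45 ± 0.14 (edgeR adjusted p = 0.0233), a call lost without amputated replicate 1 (0.0701) or 3 (0.0655) or uncut replicate 1 (0.0591) or 3 (0.0758). With library totals alone 18 rose and 1 fell.

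Other surface proteins, most of them GPI-anchored, included genes that rose and genes that fell. Of the 56 that were tested 9 rose and 15 fell, with a median of −0.09, against 20.8% higher and 19.6% lower among all tested genes, and with library totals alone 14 rose and 7 fell. With the test limited to genes that reached a mean of 5 CPM, 5 rose and 12 fell. The prion-related gene prnprs3 rose by 1.11 ± 0.09 (edgeR adjusted p = 3.7e-06). Those that fell included the dipeptidase gene dpep2 (−1.36 ± 0.12, edgeR adjusted p = 6.4e-06), the metalloprotease inhibitor gene reck (−0.71 ± 0.07, 1.81e-05) and the adhesion gene cntn5 (−2.14 ± 0.24, 2.73e-05). The value of cntn5 was the lowest on this list.

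In human cancer cells the MSLN gene has been tied to an element bound by TEAD factors, the DNA-binding partners of the Hippo pathway's YAP. On a list of these factors, their regulators and common targets, 4 of 28 rose and 10 fell, with a median of −0.12, against 20.8% higher and 19.6% lower among all tested genes. With library totals alone 11 rose and 4 fell, so the balance turned with the scaling. Without amputated replicate 2 the count that rose was 2. The TEAD factor genes tead1a and tead3b were at −0.87 ± 0.14 (edgeR adjusted p = 0.000476) and −0.48 ± 0.10 (0.00198), and tead3b did not pass with library totals alone (0.0977). The Hippo scaffold gene sav1 fell by 0.69 ± 0.09 (edgeR adjusted p = 0.000117) and the YAP-binding gene amotl2a by 0.54 ± 0.09 (0.000688). Those that rose were the Hippo kinase gene stk3 (0.41 ± 0.11, edgeR adjusted p = 0.00797), nf2b, which encodes a merlin-type regulator (0.39 ± 0.09, 0.00378), amotl2b, a paralogue of amotl2a (0.27 ± 0.08, 0.0148), and the target gene ccn1l2, listed as cyr61l2 (0.33 ± 0.12, 0.0372). The call of amotl2b was lost without amputated replicate 1 (0.0518) or 2 (0.0625). That of cyr61l2 was lost with DESeq2 (0.0601), without amputated replicate 2 (0.138) or 3 (0.0915) and without uncut replicate 1 (0.0904) or 3 (0.0577).

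Markers of the cell types a fold sample can hold were set beside mslna. Most mesothelial and epicardial markers had few or no counts in both groups. Of 13 found in the table, wt1a, tcf21 and gata5 were at 0 in all 6 libraries. The gene wt1b had 9 counts in amputated folds and 9 in uncut folds, and upk3b had 26 in each. But tbx18 averaged 22.5 CPM in amputated folds and 29.5 CPM in uncut folds. The mean of podxl was 21.0 CPM in amputated folds and 17.5 CPM in uncut folds. Of the 2 that could be tested, tbx18, which fin mesenchyme also expresses, was at −0.38 ± 0.12 (edgeR adjusted p = 0.0267), a call lost without amputated replicate 1 (0.0626) or 2 (0.118), without uncut replicate 3 (0.102) and when totals alone set the scale (0.431). The other, podxl, was at 0.26 ± 0.11 (edgeR adjusted p = 0.0845, but 0.0425 with a replicate block and 0.00398 when totals alone set the scale, at 0.51). The summed level of the list was 44.5 to 45.5 CPM in amputated folds and 45.7 to 51.8 CPM in uncut folds.

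Many epidermal and mesenchymal markers were lower in amputated folds. Among all tested genes 20.8% were called higher and 19.6% lower. Of 18 tested superficial epidermis markers 13 fell, with a median of −0.47 and a summed level of 42304 to 52280 CPM in amputated folds and 58029 to 77058 CPM in uncut folds. The lowest was the transcription factor gene klf3, at −1.24 ± 0.17 (edgeR adjusted p = 0.000134), followed by the detoxifying enzyme gene gstp1 at −1.22 ± 0.10 (3.8e-06). Also among them were the annexin gene anxa1c at −0.83 ± 0.11 (edgeR adjusted p = 0.00012) and ppl, a gene of the cell envelope, at −0.54 ± 0.09 (0.000556). Among the 15 basal epidermis markers, where the median was −0.32, 8 fell and 1 rose, the lowest being the basement membrane gene fras1 at −1.34 ± 0.13 (edgeR adjusted p = 1.18e-05). A laminin gene, lama5, was at −1.003 ± 0.11 (edgeR adjusted p = 2.05e-05) and the claudin gene cldn1 at −0.88 ± 0.11 (5.3e-05). The summed level of basal markers was 8095 to 9305 CPM in amputated folds and 9230 to 10544 CPM in uncut folds. Of 15 fin mesenchyme markers 12 fell, with a median of −0.46, led by the actinotrichia gene and3 at −2.01 ± 0.10 (edgeR adjusted p = 1.7e-07), with a summed level of 69982 to 79494 CPM in amputated folds and 151724 to 163674 CPM in uncut folds. With library totals alone 6 superficial markers fell and 2 rose, 5 basal markers fell and 4 rose, and 7 mesenchyme markers fell and 3 rose; without amputated replicate 2 or uncut replicate 1, or with a replicate block, 2 basal markers rose.

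Leukocyte markers went the other way. Of 18 tested, 16 rose and 1 fell, with a median of 1.88, against 20.8% higher and 19.6% lower among all tested genes. Their summed level was 369 to 442 CPM in amputated folds and 249 to 296 CPM in uncut folds. With the test limited to genes that reached a mean of 5 CPM, 9 rose. Among them coro1a, an actin-binding protein gene of leukocytes, rose by 2.40 ± 0.13 (edgeR adjusted p = 2.5e-07), lcp1 by 2.93 ± 0.21 (1.23e-06) and the myeloid transcription factor gene spi1b by 2.62 ± 0.20 (1.96e-06). The cytokine gene il1b was at 3.08 ± 0.24 (SE). The highest was plek, at 4.04 ± 0.32 (SE), with 413 counts in amputated folds and 18 in uncut folds. Both il1b and plek passed the filter on low counts through the amputated folds alone, so no p-value is given for them. The gene plek was also named after its values were seen. Of 15 markers of ionocytes and mucous cells 6 rose and 2 fell, with a median of 0.37. Among all tested genes 20.8% were higher and 19.6% lower. Those that rose included the proton pump subunit gene atp6v1ba (0.66 ± 0.08, edgeR adjusted p = 3.48e-05). The mucin genes muc5.2 and muc5.1 rose by 0.71 ± 0.09 (edgeR adjusted p = 8.02e-05) and 0.81 ± 0.11 (9.77e-05). The lowest was the ammonium transporter gene rhcga, at −1.59 ± 0.17 (edgeR adjusted p = 2.43e-05). With library totals alone, or with any of the amputated libraries or uncut replicate 2 or 3 left out, 1 fell. The list summed to 547 to 570 CPM in amputated folds and 398 to 464 CPM in uncut folds.

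Of 12 skeletal muscle markers 8 fell, with a median of −0.38, where 19.6% of all tested genes were lower. The lowest was the myosin gene myhz2, at −0.68 ± 0.12 (edgeR adjusted p = 0.000588). With library totals alone 1 muscle marker fell. Muscle markers summed to 1836 to 2040 CPM in amputated folds and 2352 to 2907 CPM in uncut folds. Of 16 hair cell and neuromast markers 1, the channel gene tmc1, was called lower (2 with a replicate block), at −0.66 ± 0.24 (edgeR adjusted p = 0.0449). The share called lower among all tested genes was 19.6%. The call of tmc1 was lost without amputated replicate 1 (0.112), 2 (0.0824) or 3 (0.101) and without uncut replicate 1 (0.113) or 3 (0.141), with DESeq2 (0.0919) and with library totals alone (0.185), where 3 markers of this list rose. This list summed to 640 to 778 CPM in amputated folds and 649 to 768 CPM in uncut folds. The lowest tested marker of these 8 cell type lists was and3, at −2.01, against −4.33 for mslna. But mslna was chosen by its difference, and only 1 tested gene had a lower value. Members of any list were thus all but bound to lie above mslna. The part of cell mixture in the fall of mslna was not tested.

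**Figure D4:**
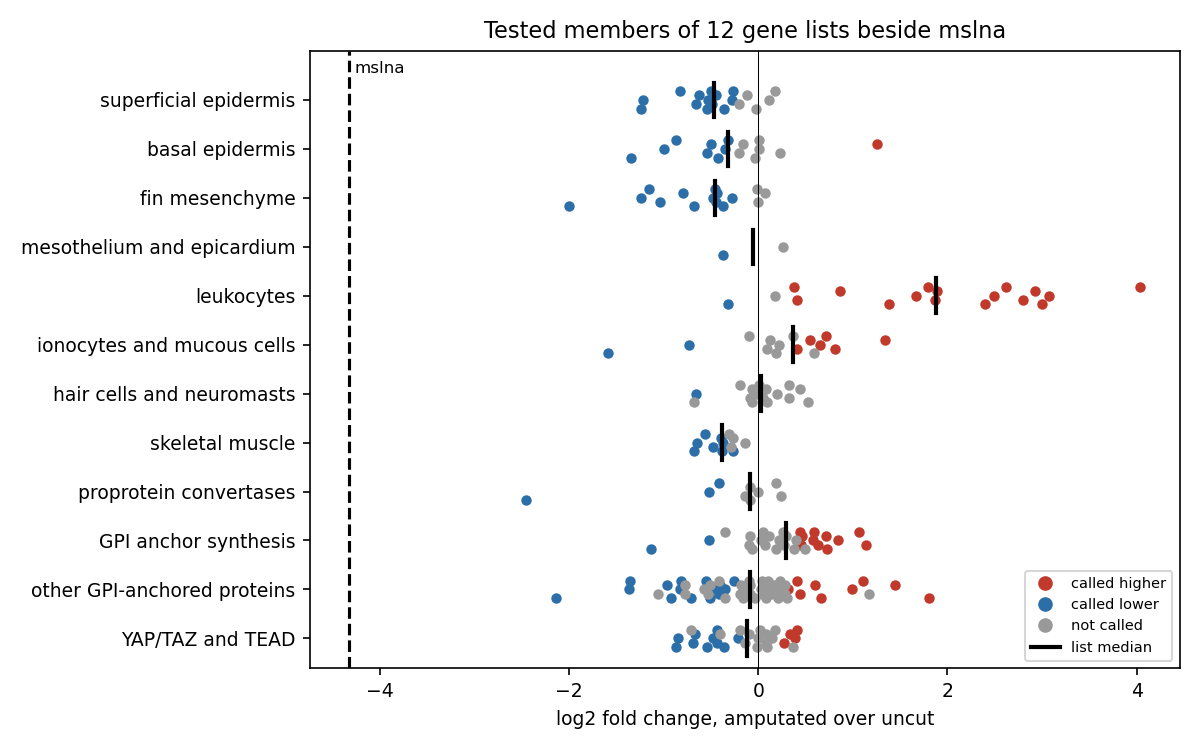
Log2 fold change (amputated over uncut) of every tested member of 8 cell type marker lists and 4 lists on the making and control of mesothelin, each point a gene coloured by its edgeR call, with the list median as a black bar and mslna as the dashed line at −4.33. Leukocyte markers lie to the right with a median of 1.88. No point of any list reaches the line of mslna, a gene chosen by its difference in these same groups.

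Genes whose pattern over the 6 libraries was most like that of mslna were named by the root mean square difference between log2 CPM profiles, each centred on its own mean, among 14488 tested genes that reached a mean of 1 CPM and had a symbol that is not a clone name. With 2 groups of 3 libraries this measure mostly reflects the size of the group difference, and the profiles share library and depth. The nearest was galnt8a.2, a gene of the family that starts O-linked sugar chains, at a difference of 0.65. It had 3, 4 and 7 counts in amputated replicates 1, 2 and 3, and 49, 55 and 32 counts in uncut replicates 1, 2 and 3. Next were sgms2 (0.74), the copine gene cpne5b (0.80), which encodes a calcium-dependent membrane-binding protein, and the bile acid transporter gene slc10a1 (0.81). The list went on with angptl1b, an angiopoietin-like gene (1.004), brinp3a.1 (1.01), the phospholipid transporter gene atp8b3 (1.02) and the clock repressor gene nr1d1 (1.03).

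These genes had low counts or smaller falls. In amputated folds the means of galnt8a.2, sgms2, slc10a1, angptl1b and brinp3a.1 were 0.18 to 0.85 CPM. They reached the mean of 1 CPM over all libraries through the uncut folds alone. The log2 fold change was −3.71 ± 0.34 for galnt8a.2 and −3.66 ± 0.34 for slc10a1, which were also the next above mslna in order of fold change among genes with such symbols, and −2.99 ± 0.25 for cpne5b, after them. From angptl1b to nr1d1 it lay between −2.72 and −2.46. In sgms2, 3, 7 and 1 counts in amputated folds stood against 61, 91 and 42 in uncut folds, and in slc10a1, 6, 6 and 5 stood against 53, 56 and 46. Only nr1d1 among the 8 had a mean above 10 CPM in uncut folds, at 15.7 ± 5.40 CPM (SD, n = 3), with 2.80 ± 1.01 CPM (SD, n = 3) in amputated folds.

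**Figure D5:**
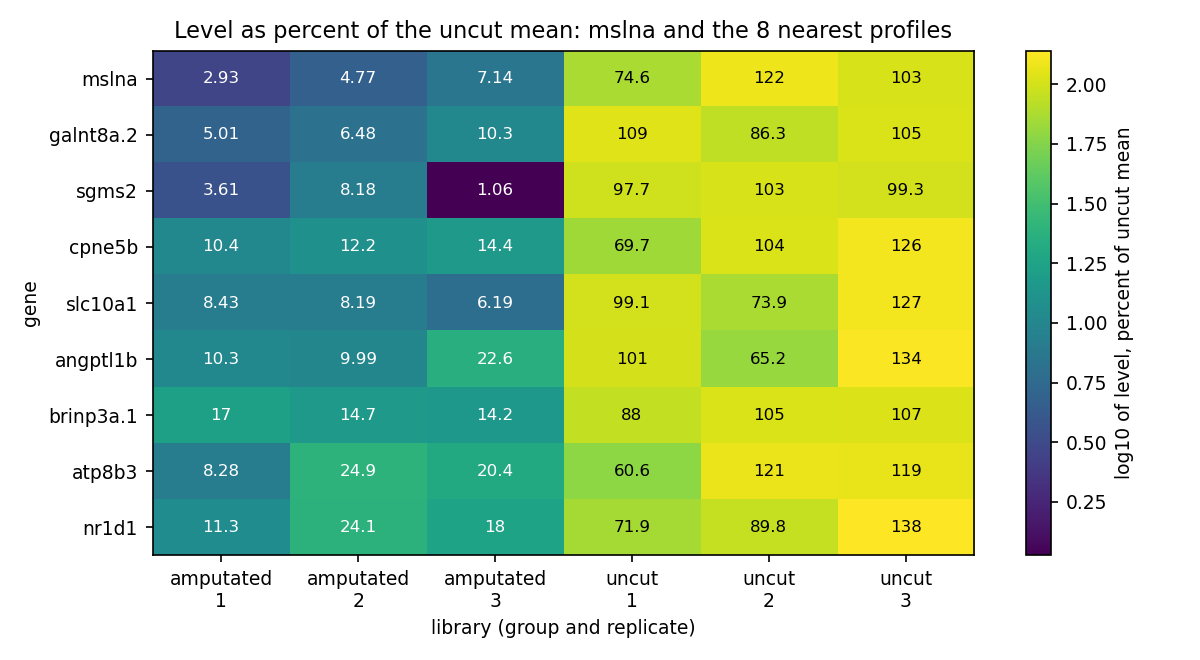
Level of mslna and of the 8 genes nearest to it in profile in each library, as a percent of that gene's mean over the 3 uncut libraries (colour on a log10 scale). In mslna the amputated libraries stand at 2.93%, 4.77% and 7.14% and the uncut libraries at 74.6%, 122% and 103%.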

How the data were processed

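The authors deposited whole-number counts per gene for the 6 libraries, beside a normalized signal (counts over a size factor) and its mean. The deposited table also holds the authors' log2 fold change (uncut over amputated), its standard error, a Wald score and p-values. Per the submitters' processing notes, TopHat, Cufflinks and DESeq2 were used, with no version or role. Per the labels' protocols, libraries came from Trizol RNA with a TruSeq kit, which does not mark strand. The sources used here name no counter, genome build or annotation release.

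The test was that of edgeR 4.0.16 (R 4.3.3) on the counts: filterByExpr (minimum count 10, minimum total 15), TMM scaling, glmQLFit and glmQLFTest with no covariate, and Benjamini-Hochberg adjustment over 17883 genes. Each SE was taken as the log2 fold change without its sign, divided by the root of F. A count of 1 was worth 0.0436 to 0.0971 CPM. The fit was tested on simulated counts, and DESeq2 1.42.0 was an alternative. The gene name table held 26433 of the 32266 IDs and gave symbols to clone-style names. Of 319 list members written, 286 were found. The gene mslna and all lists were chosen with earlier results of these data known.

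Named genes were mslna and its relatives, all genes within 100 kb, from each list up to 4 members with the smallest adjusted p (some are left undiscussed, and 2 are not reported here), the 8 nearest profiles (log2 CPM with a prior count of 2) and up to 3 genes on each side of mslna in fold change. Relatives added through the table's human ortholog column, and podxl, wt1a, wt1b, tcf21, gata5, upk3b, plek, pigt, pigk, pigu, mpdu1b, stk3, nf2b, amotl2b and ccn1l2, were named after their values were seen. Across genes, deviations from group means of libraries with the same replicate number correlated at 0.222, 0.199 and 0.153, and those of other pairs at −0.143 to −0.04. The numbers may therefore mark a pairing, which comes from the data and not the labels. The main fit took no account of it, and the replicate block was an alternative fit. Within a group no pair of libraries came near to agreeing within sampling noise, with chi-square at 4.7 to 17 times its degrees of freedom.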

Additional observations from a re-analysis of the deposited data

How the results depend on the processing

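The log2 fold change of mslna ranged from −4.36 to −3.81 over the alternatives that kept all libraries. It was −4.34 with DESeq2's size factors, −4.34 with DESeq2 and −4.07 with library totals alone. With no filter on low counts it was −4.32, and with a prior count of 2 it was −4.30. The authors' deposited value, with its sign turned round, was −3.81. Whether that value was shrunk toward 0 is not stated in the sources used here. The authors' normalized signal of mslna was 67.8, 109.6 and 164.4 in amputated replicates 1, 2 and 3. In uncut replicates 1, 2 and 3 it was 1739, 2820 and 2385. With one library left out it ranged from −4.70 (without amputated replicate 3) to −4.07 (without amputated replicate 1). For scale, the SD of log2 CPM of mslna between replicates was 0.63 in amputated folds and 0.36 in uncut folds. The replicate block gave −4.36 for mslna and 4125 higher and 4016 lower genes; among named genes it changed the calls of litaf, strc1, otoa and podxl and of no other. Library totals alone gave 6820 higher and 1638 lower genes, and an adjusted p under 0.01 gave 2562 higher and 2283 lower genes. With one library left out, 3011 to 3869 genes were higher and 2732 to 3667 lower. Of 901 fits of 77 named genes under an alternative, 848 kept their side of the threshold, 41 lost a call, 12 gained one and 0 reversed. The cause of these changes was not tested. Low counts limit the 2 RNAs beside mslna after amputation, which had 34 and 75 counts in that group. The nearest profile to mslna was at a root mean square difference of 0.29 when clone-style names were let in, a choice made after seeing the data, against 0.65 without them.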

Other observations

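When clone-style names were let in, a choice made after the values were seen, the RNA nearest to mslna in profile was its neighbour si:dkey-288d17.2, at a root mean square difference of 0.29 on the log2 CPM scale. The protein-coding genes si:dkey-201i2.4 (0.56) and si:ch211-25g7.5 (0.85) were also among the 8 nearest. The gene si:ch211-25g7.5 had 4.22 ± 1.78 CPM in amputated folds and 34.7 ± 17.1 CPM in uncut folds (SD, n = 3 each), at −2.999 ± 0.33 (SE). The gene si:dkey-201i2.4 had 0.50 ± 0.41 CPM in amputated folds and 5.52 ± 1.57 CPM in uncut folds (SD, n = 3 each), at −3.40 ± 0.40 (SE). It reached the mean of 1 CPM through the uncut folds alone. Both genes were picked for a profile like that of mslna, so their differences are described and not tested.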
